A study of Mus musculus with 2 samples.

Results

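GATA4 peaks were examined at 9 mouse genes grouped here as partners and inhibitors of MyoD, the determination factor of skeletal muscle. They were the E protein genes Tcf3, Tcf4 and Tcf12, the Id genes Id1, Id2, Id3 and Id4, and Msc and Msgn1, which encode MyoR and mesogenin 1. A peak was counted at a gene when its centre lay in the RefSeq gene span (GRCm38) or within 50 kb of it. All 9 genes, of 21887 protein coding genes in the annotation, were matched by symbol, and their windows held 26 of the 17539 deposited peaks. No peak was counted at more than 1 of the 9 genes.

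The peaks came from 1 chromatin immunoprecipitation library made with a mixture of 3 antibodies to GATA4, a zinc finger transcription factor, in cultured mouse myoblasts. A library made with control IgG from the same kind of cells was sequenced beside it, and no library was replicated. Both came from myoblasts grown from satellite cells of STOCK Myf5tm1Pas/J mice, so the GATA4 and the IgG cells alike carried a targeted Myf5 allele, of unstated zygosity. The cells were kept in growth medium with 20% serum and 20 ng/ml basic fibroblast growth factor, a medium for proliferating precursors. Whether they were proliferating cannot be read from these data. The deposited list holds positions and scores and no expression values, so the myoblast label could not be checked against marker genes, and no IgG background can be set beside the peaks.

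MyoD and its relatives are basic helix-loop-helix (bHLH) proteins that bind E-boxes, DNA words of the form CANNTG, as heterodimers with E proteins. Id proteins have the helix-loop-helix but no basic region, so an E protein held by an Id protein cannot bind DNA, and Id genes are well-known targets of BMP signalling in proliferating cells. MyoR is a bHLH repressor that competes with MyoD in muscle precursors, and mesogenin 1 is a bHLH factor of the presomitic mesoderm, from which the somites and later the trunk muscles form. The symbols Tcf3 and Tcf4 stand here for the E protein genes and not for the Wnt pathway factors of similar name.

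A peak overlapped the listed start site window of 3 of the 9 genes, and those windows are shown because they are where a peak and a gene start meet. Each runs from 250 bases before to 50 bases after a RefSeq transcription start (GRCm38.p6), 5′ to 3′ on the gene's strand, and capitals mark E-boxes (CANNTG) and GATA words (GATA with A or T before it and A or G after it), searched on both strands.
Tcf3, chr10:80433586-80433885, minus strand: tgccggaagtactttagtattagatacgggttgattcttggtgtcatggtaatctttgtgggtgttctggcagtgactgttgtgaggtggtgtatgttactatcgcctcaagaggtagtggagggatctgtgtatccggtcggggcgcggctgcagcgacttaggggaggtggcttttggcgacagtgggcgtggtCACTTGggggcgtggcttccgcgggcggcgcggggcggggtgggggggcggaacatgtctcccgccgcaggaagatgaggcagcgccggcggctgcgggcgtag
Tcf12, chr9:72111770-72112069, minus strand: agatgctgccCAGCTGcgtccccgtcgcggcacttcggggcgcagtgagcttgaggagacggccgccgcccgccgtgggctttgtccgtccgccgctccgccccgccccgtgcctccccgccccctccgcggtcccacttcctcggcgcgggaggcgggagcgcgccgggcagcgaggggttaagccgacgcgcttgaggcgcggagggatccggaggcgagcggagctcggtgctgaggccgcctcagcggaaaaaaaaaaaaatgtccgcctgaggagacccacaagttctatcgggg
Id3, chr4:136143572-136143871, plus strand: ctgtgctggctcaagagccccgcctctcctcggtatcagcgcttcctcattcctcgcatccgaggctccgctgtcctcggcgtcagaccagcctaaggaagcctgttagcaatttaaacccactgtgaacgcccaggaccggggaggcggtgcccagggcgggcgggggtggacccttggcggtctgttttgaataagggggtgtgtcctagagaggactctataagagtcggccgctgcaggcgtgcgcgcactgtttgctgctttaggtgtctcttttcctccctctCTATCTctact
The peaks covered 229 of the 300 bases at Tcf3 and all 300 at Tcf12 and Id3. Start windows were listed for 6 of the 9 genes, 8 windows in all, and the windows of Id2, Id4 and Msgn1 and the other 2 windows of Tcf12 met no peak. Tcf4, Id1 and Msc had no window in the table. Over all protein coding genes with a listed window, 8.38% had a window that a peak overlapped.

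A GATA word was present in 1 of the 3 overlapped windows. The Id3 window held CTATCT, the reverse complement of AGATAG, at bases 40 to 45 after the start. The Tcf3 and Tcf12 windows held none, whereas Tcf3 had the E-box CACTTG at -54 to -49 and Tcf12 the E-box CAGCTG at -240 to -235. Of the 2004 windows of this length that a peak overlapped, 23.8% held a GATA word and 62.5% an E-box. Of all 32851 windows, 29.8% held a GATA word and 72.3% an E-box. The overlapped windows were richer in G and C, with a median of 59.7% against 52.7% in all windows. The word GGAATG, which TEAD factors bind, was present in the Id3 window as CATTCC on the other strand at -203 to -198, and in 13.6% of overlapped and 14.7% of all windows. GGCGCC, a word bound by SMAD proteins downstream of BMP, was in none of these 3 windows, and occurred in 18.9% of overlapped and 11.9% of all windows. The peaks extend beyond these windows, and their remaining sequence was not read.

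All 9 genes had a peak in the span or within 50 kb, where 56.8% of protein coding genes had one. Of the 26 peaks, 5 lay inside the gene, 2 were centred within 1 kb outside it, 4 from 1 to 10 kb away and 15 from 10 to 50 kb away. Id3 had 6 peaks, Tcf12 and Msc had 5 each, Msgn1 had 3, Tcf3 and Id4 had 2 each, and Tcf4, Id1 and Id2 had 1 each. The median was 2 peaks per gene, against 1 over all protein coding genes. Within 10 kb, 6 of the 9 genes had a peak (33.3% of all), and within 1 kb 4 did (24.6% of all). Id1, Id2 and Id4 had none within 10 kb. Counting only peaks above the median score of the list, 6 of the 9 genes had a peak within 50 kb (36.8% of all), and Tcf4, Id1 and Id4 had none.

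Gene length sets how wide these windows are. Tcf4 and Tcf12 span 345 and 268 kb, Tcf3 spans 24.4 kb, and the Id genes, Msc and Msgn1 span under 5 kb. These 6 short genes all had a peak within 50 kb, with a median of 2.5 peaks, where 37.7% of the 5034 protein coding genes under 5 kb long had one, with a median of 0. At least 5 peaks, as at Id3 and Msc, were found at 2.42% of such short genes. Of 638 genes between 200 and 400 kb long, 74.8% had a peak and 26% had at least 5, as Tcf12 did. These length limits were chosen after the values were seen, and the limit of 5 peaks equals the count at Msc and Tcf12. Of the 6 peaks of Id3, 3 had Id3 as the nearest protein coding gene. Tcf3 lies on chromosome 10, where 75.5% of protein coding genes had a peak within 50 kb, and on the chromosomes of the other 8 genes the share ran from 54.3% to 66.4%.

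**Figure D1:**
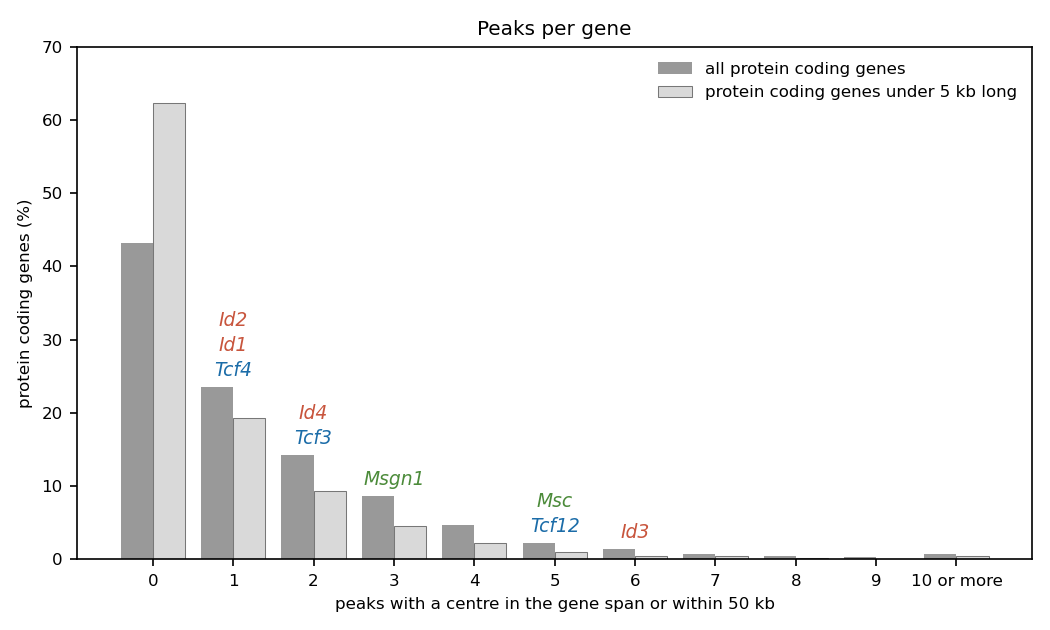
Percentage of protein coding genes (vertical axis) with each number of GATA4 peaks in the gene span or within 50 kb (horizontal axis), for all such genes and for those under 5 kb long. Gene names mark the number of peaks of the E protein (blue), Id (red) and Msc and Msgn1 (green) genes, from 1 at Tcf4, Id1 and Id2 to 6 at Id3.

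The strength of a peak is given by the MACS score, the authors' value for each peak. These scores are not a smooth scale. Among the 4676 peaks up to 600 bp wide, 94.1% had one of 11 scores, and above that width the scores ran down in parallel lines as peaks became wider. The 11 scores, from 71.6 to 213, matched the log10 of the Poisson probability of more than 7 to more than 17 reads, with its sign turned and multiplied by 10, given 0.508 background reads per 600 bp, with a largest misfit of 0.00398. With the same rate, scaled to the width of wider peaks, the scores of 17491 peaks, or 99.7%, matched a whole number of reads within 0.02, where successive read numbers lie at least 12.5 apart in the 11 scores. The match used a single rate for the whole list, with no term for the IgG library or for local background. Expected reads given here are this rate scaled to peak width, and not a measured control. The scores of all 26 peaks matched. A read number could therefore be set beside each score, under the reading that the caller's probability is that of more than the observed number. The same scores arise if it is that of at least the observed number, and each read number given here is then 1 too low, with its interval shifted upwards. The caller's version, which would settle this, is unknown. The sources used here do not give whether reads or read pairs were counted, or whether duplicates were removed.

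Under the first reading, the peaks at the 9 genes rested on 7 to 30 reads each, with a median of 10.5, against a median of 10 and quartiles of 8 and 13 over all peaks. Their median score was 107, with quartiles of 77.8 and 169, against 99.3 over the list, with quartiles of 77.7 and 138. Of the 26, 14 scored above the median of the list, or 53.8%. Their median width was 740 bp, against 745 bp over all peaks. As a set they therefore lay in the middle of the list in score, reads and width.

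**Figure D2:**
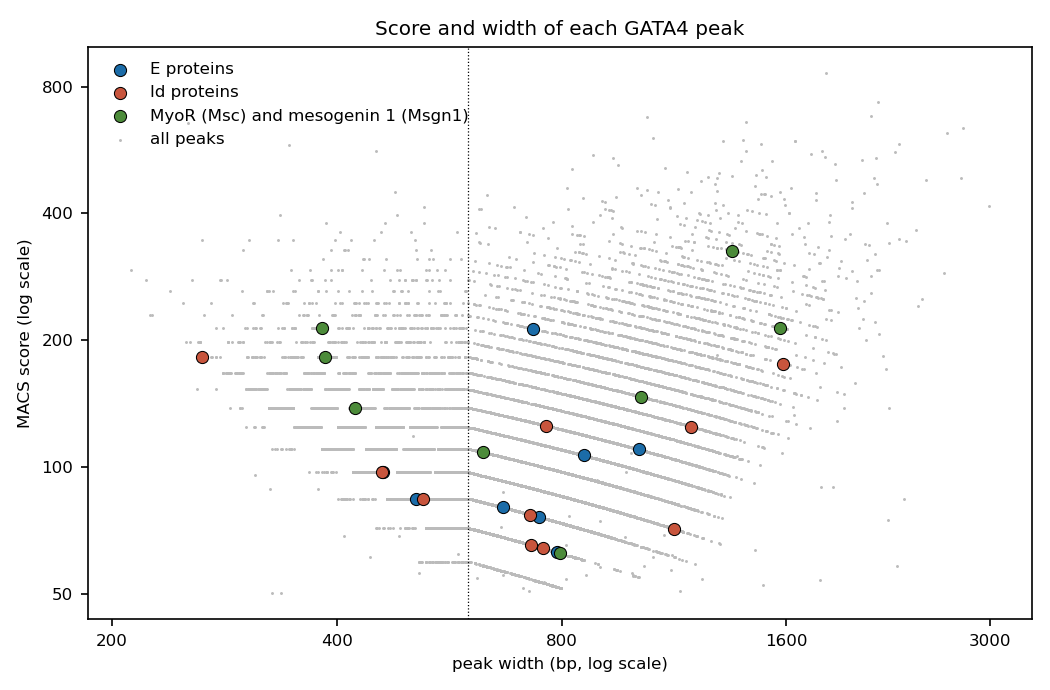
MACS score (vertical axis, log scale) against peak width in bp (horizontal axis, log scale) for all 17539 peaks (grey) and the 26 peaks of the E protein, Id and Msc and Msgn1 genes (coloured). The grey points form lines, flat up to the dotted line at 600 bp and falling beyond it, and all 26 coloured points lie on them.

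The E protein genes held 8 peaks with a median score of 90.6 and 8.5 reads, and 3 of the 8 scored above the median of the list. The most prominent was at Tcf3, the gene of the most widely studied E proteins, which spans chr10:80409541-80433976. Its peak at chr10:80433657-80434389 had a score of 213 and 18 reads (95% Poisson interval 10.7 to 28.4, counting error only), against 0.62 expected from the background rate. The centre lay 0.047 kb beyond the end of the gene span, 0.388 kb upstream of the listed start, and the nearest other protein coding gene, Uqcr11, was 27.2 kb away. The second peak in the window, with a score of 62.7 and 7 reads, lay 11.3 kb downstream of Tcf3 and inside Mbd3, a gene of the NuRD chromatin complex. So a peak of high score lay at the 5′ end of Tcf3, and the other peak belonged by position to its neighbour.

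Tcf12, which encodes the E protein HEB, spans chr9:71844252-72111893 and had 5 peaks of even and moderate score. From the 5′ end, a peak with a score of 76.1 and 8 reads lay over the start, its centre 0.101 kb upstream of it. The next, inside the gene 10.3 kb downstream of a listed start, had a score of 106 and 11 reads. A further pair of peaks inside the gene lay near a listed internal start, 3.05 kb upstream of it with a score of 80.2 and 8 reads, and 21.1 kb downstream of it with a score of 110.0 and 12 reads. The fifth peak, with a score of 97.0 and 9 reads, lay 21.2 kb past the 3′ end and was nearer to Cgnl1, at 13.8 kb. In all, 4 of the 5 peaks lay in the gene or within 1 kb of it, a number that 27% of genes between 200 and 400 kb long, and 2.71% of all protein coding genes, reached or passed. Their Poisson intervals overlapped, so the peaks of Tcf12 cannot be ranked among themselves.

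Tcf4, on chromosome 18, is the longest of the 9 genes and had a single peak, in a window of 445 kb. It lay inside the gene, 0.96 kb from the lower-coordinate end, with a score of 84.1 and 8 reads (3.45 to 15.8). The nearest other protein coding gene, Ccdc68, was 580.5 kb from this peak. Tcf4 thus had 2.25 peaks per Mb of window and Tcf12 13.6, against 9.22 over all protein coding genes. The difference between Tcf4 and Tcf12 rests on 1 and 5 peaks of this single library.

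**Figure D3:**
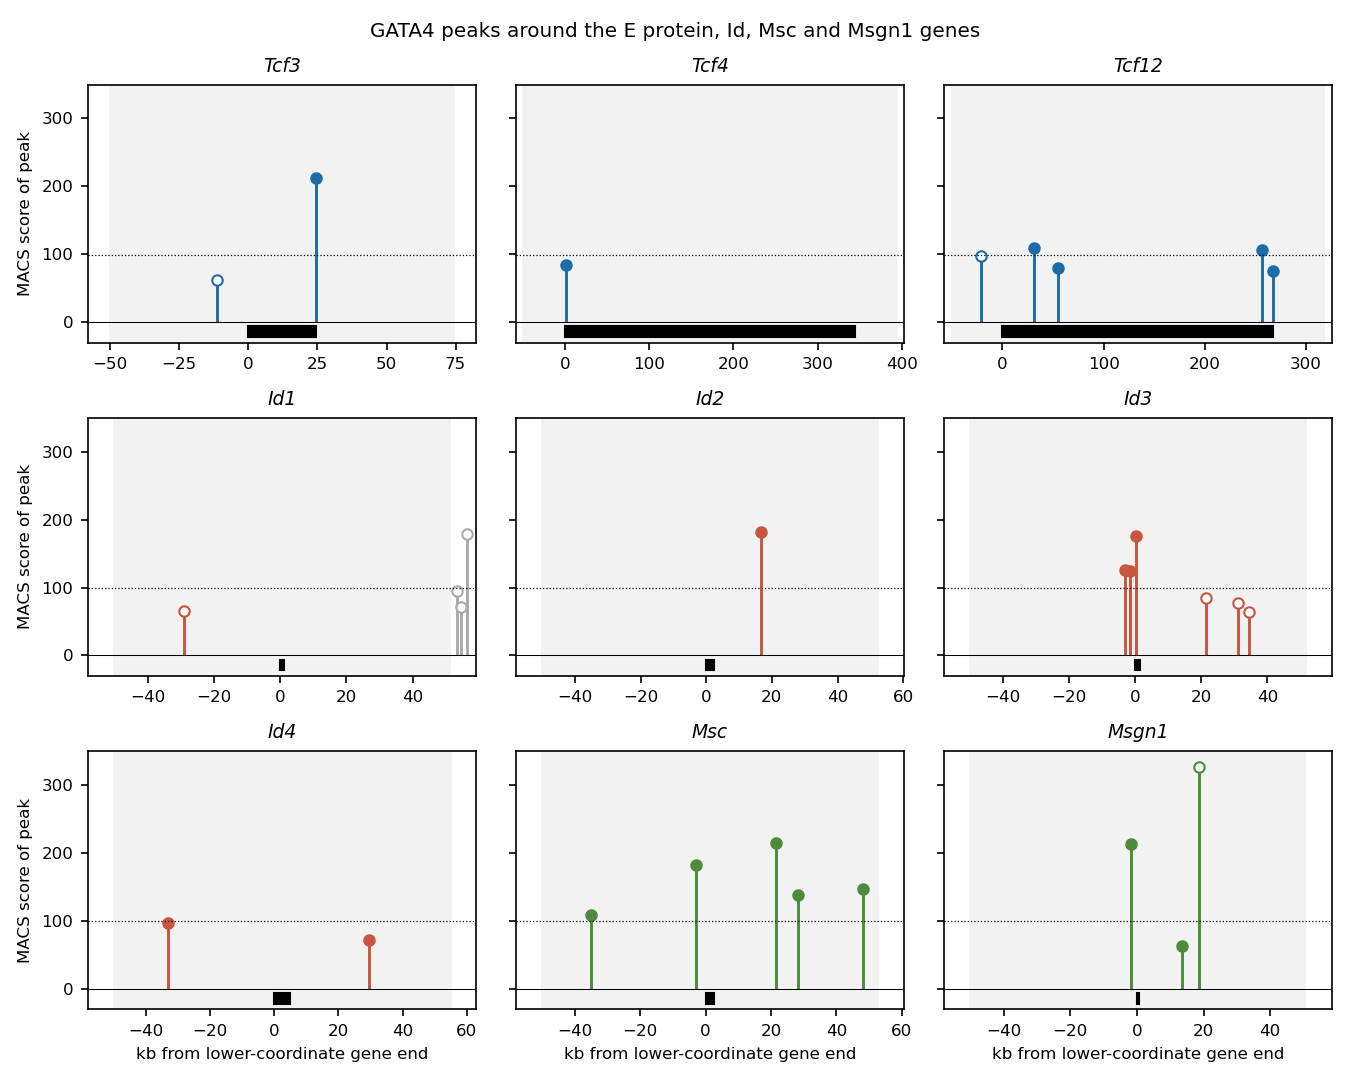
GATA4 peaks at each of the 9 genes, placed by distance in kb from the lower-coordinate gene end (horizontal axis), with the MACS score as height (vertical axis). The black bar is the gene, grey shading the gene with 50 kb on either side, open circles are peaks that lie nearer to another protein coding gene, grey symbols peaks beyond 50 kb, and the dotted line is the median score of all peaks, 99.3. Id3 has 3 peaks close to the gene, and Msc has 5 peaks that all exceed the median.

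The Id genes held 10 peaks, 6 of them at Id3. Id3 spans chr4:136143822-136145392, on the plus strand. A peak of 1586 bp at chr4:136143100-136144685 covered the start site and 864 bp of the gene, which is 1571 bp long, with a score of 176 and 20 reads (12.2 to 30.9). A pair of peaks lay 1.59 and 3.23 kb upstream, over the lncRNA gene Gm42329, with scores of 125 each and with 14 and 12 reads. The 3 peaks together covered 3541 bp of a stretch of 4.48 kb. At least 3 peaks within 10 kb, as at Id3, were found at 1.39% of protein coding genes under 5 kb long and at 6.51% of all. The limit of 3 was taken from Id3 itself. Whether these closely spaced peaks are separate regions or parts of a single one was not tested.

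The other 3 peaks of Id3 had lower scores and lay nearer to E2f2, the gene of a cell cycle transcription factor. A peak 19.8 kb downstream of Id3 and 7.09 kb from E2f2 had a score of 84.1 and 8 reads. Those 29.4 and 32.8 kb downstream lay inside E2f2, with scores of 77.0 and 64.1 and with 8 and 7 reads. All 3 scored below the median of the list, and the 3 close to Id3 scored above it. Their read intervals, 3.45 to 15.8 for 8 reads and 2.81 to 14.4 for 7, overlapped even that of the start site peak, 12.2 to 30.9.

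The other Id genes had no peak near the gene body. Id2 had 1 peak, 14.5 kb upstream and only 264 bp wide, with a score of 182 and 15 reads (8.40 to 24.7). That score was shared by 175 peaks. Id4 had a peak 33.2 kb upstream, over the lncRNA genes A330033J07Rik and Gm36183, with a score of 97.0 and 9 reads, and another 24.6 kb downstream with a score of 71.2 and also 9 reads. The Id4 peaks show how width enters the score, since equal read numbers in 460 and 1133 bp gave scores of 97.0 and 71.2. Likewise the narrow Id2 peak outscored the Id3 start site peak, 182 against 176, with fewer reads, 15 against 20.

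Id1 had the least near it. Its only peak within 50 kb, with a score of 65.3 and 7 reads, lay 29.2 kb away on the lower-coordinate side and inside H13, which encodes signal peptide peptidase. Just beyond the 50 kb limit, at 52.1 kb on the other side, a peak with a score of 95.6 lay inside Bcl2l1, the gene of the survival factor Bcl-xL. The peak just inside the limit among the 9 genes was that of Msc at 45.4 kb. When each peak was given to its nearest protein coding gene, 8 of the 9 genes had a peak (32.7% of all), and Id1 had none.

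Msc and Msgn1 held 8 peaks with a median score of 165 and 15 reads, and 7 of the 8 scored above the median of the list. The medians were 90.6 and 8.5 reads at the E protein genes and 90.6 and 9 reads at the Id genes. These groups of 8 to 10 peaks come from a single library and were not tested against each other. The medians also include peaks that lay nearer to another protein coding gene. The gene itself was the nearest for 3 of 6 peaks at Id3, 0 of 1 at Id1 and 2 of 3 at Msgn1. Among the E protein genes it was the nearest for 4 of 5 peaks at Tcf12 and 1 of 2 at Tcf3.

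Msc spans chr1:14753344-14756089, and its 5 peaks were spread over 83.9 kb with no other protein coding gene within 50 kb of any of them. A peak of 386 bp lay 2.87 kb from the gene on the lower-coordinate side, with a score of 182 and 15 reads. On the same side, 34.9 kb away, lay a peak with a score of 108 and 10 reads. On the higher-coordinate side, the broad peak at chr1:14774031-14775601, 18.7 kb from the gene, had a score of 214 and 23 reads (14.6 to 34.5). It overlapped the lncRNA gene Gm9947, as did the peak at 25.5 kb with a score of 138 and 12 reads. The peak at 45.4 kb had a score of 147 and 15 reads. Each of the 5 peaks of Msc thus exceeded the median score, and their distance to the nearest other protein coding gene, Trpa1, was 71.2 to 154 kb.

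Msgn1 spans chr12:11208382-11208948, on the minus strand, and had the highest-scoring peak of the 9 genes. This peak, chr12:11226491-11227844, had a score of 326 and 30 reads (20.2 to 42.8), and ranked 258 of 17539 by score. It lay 18.2 kb upstream of Msgn1 but 11.8 kb from Gen1, a Holliday junction resolvase gene, so position alone does not assign it to Msgn1. Its read interval lay above those of 14 of the other 25 peaks. A peak of 382 bp, 1.71 kb past the 3′ end of Msgn1, had a score of 213, held by 104 peaks, and 17 reads (9.90 to 27.2). The third, 12.9 kb upstream, had a score of 62.3 and 7 reads. A peak that scored at least as high as the one near Gen1 lay within 50 kb of 1.29% of protein coding genes.

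**Figure D4:**
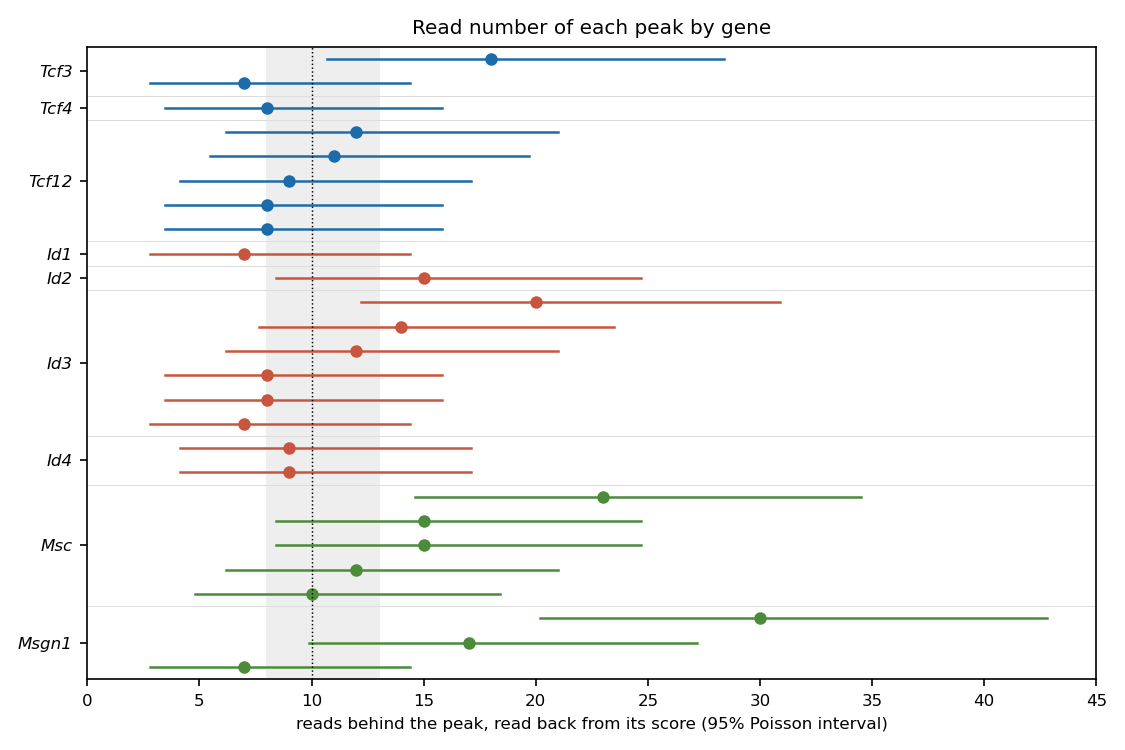
Number of reads behind each of the 26 peaks, read back from the score as the probability of more than that number (horizontal axis), with 95% exact Poisson intervals that cover counting error only, by gene (vertical axis). Grey shading shows the quartiles of all peaks, 8 and 13 reads, and the dotted line their median of 10. Most intervals overlap, and the peak with 30 reads near Msgn1 has the highest.

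Neighbouring genes limit what these counts say of the 9 genes. For 19 of the 26 peaks the gene itself was the nearest protein coding gene, and for 12 no other protein coding gene lay within 50 kb. The 19 had a median score of 125 and 12 reads, and the 7 that were nearer to another gene had a median of 77.0 and 8 reads. Of the 7, only the peak between Msgn1 and Gen1 scored above the median of the list. All peaks of Tcf4, Id2, Id4 and Msc had the gene itself as the nearest protein coding gene. With lncRNA genes counted too, Gm9947 was nearer to the Msc peaks 18.7, 25.5 and 45.4 kb away. Likewise Gm42329 was nearer to the Id3 peaks 1.59 and 3.23 kb upstream. Both Id4 peaks were nearer to lncRNA genes, A330033J07Rik and Gm36183 upstream and A330048O09Rik downstream.

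Other genes around MyoD were described by the same windows, without a check of whether another gene lay nearer to a peak. Of the myogenic bHLH genes, 3 of 4 had a peak within 50 kb, and Myog had none. The highest scores were 249.8, at 25.7 kb from Myod1, and 229, for a peak shared by Myf5 (19.9 kb away) and Myf6 (12.1 kb). Of 16 genes of other inhibitors of MyoD, 10 had a peak, or 62.5%. The highest scores were near Zeb1 (603, 31.1 kb away) and Zeb2 (248, 14.3 kb), which encode zinc finger repressors that bind E-boxes. Next was the bHLH repressor gene Bhlhe41 (162, 6.84 kb), and Twist1, Twist2 and Hey1 were among those with none. Of 16 bHLH genes of other tissues, 6 had a peak, or 37.5%, led by Neurod1 (198), Scx (138) and Tcf21 (124), and Tal1, Tcf15 and Hand1 were among those with none. None of these 16 had a peak within 1 kb and 1 had a peak within 10 kb.

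Among 13 BMP and SMAD genes, which act upstream of the Id genes, 8 had a peak within 50 kb, or 61.5%. The ligand genes Bmp2, Bmp4 and Bmp7 had none. The highest scores were near Smad6 (248, 11.1 kb away), an inhibitor of BMP signalling, and inside the BMP effector genes Smad1 (197) and Smad5 (182). The share over all protein coding genes was 56.8%, and these lists were not tested against it.

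**Figure D5:**
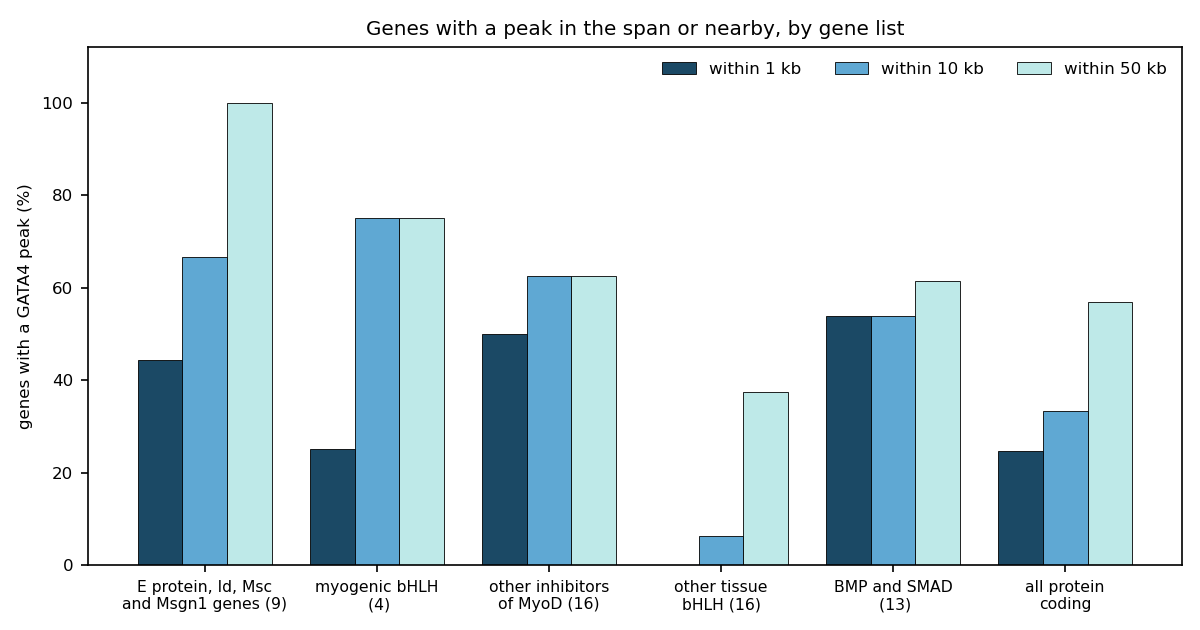
Percentage of genes with a GATA4 peak in the span or within 1, 10 and 50 kb (vertical axis), for the 9 genes described here, for 4 further lists with their numbers of genes in brackets, and for all protein coding genes. The 9 genes reach 44.4%, 66.7% and 100%, and all protein coding genes 24.6%, 33.3% and 56.8%.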

How the data were processed

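ChIP-seq of GATA4 and of control IgG was done in mouse myoblasts, with 1 library each. Per the labels' protocols, cells were fixed in 1% formaldehyde, chromatin was fragmented to 200 to 500 bp, and library products of 250 to 300 bp gave paired reads of 150 bp. CASAVA 1.8 and Bowtie were used and the build was GRCm38 (mm10), per the submitters' processing notes. Per the file headers, MACS in Galaxy called the peaks. The authors deposited a MACS score per peak. The sources used here give neither the caller's version nor its threshold or control.

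Starts were converted to 1-based positions and peaks were assigned by their centre to RefSeq gene spans of GRCm38.p6. Read numbers were read back by matching scores to Poisson probabilities of more than that number, a step added after seeing the data. The rate was set on the scores that at least 100 peaks up to 600 bp wide shared. The code for assignment and read numbers was tested on simulated data. The simulated scores came from the same Poisson formula that was then inverted. That test therefore cannot show whether the deposited scores stand for read numbers. Strand and start sites came from RefSeq promoter windows. No test was run, since no library was replicated. Counts stand beside the share over all protein coding genes. The 9 genes and the lists were chosen with earlier results of these data known. By rule, every peak of a gene with at most 6 was described. Up to 3 genes per further list were named by highest score, and up to 3 without a peak. Total depth is unknown, and the read number per peak limits precision. Python 3.11.15, pandas 2.3.3, numpy 2.4.6 and matplotlib 3.10.9 were used.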

Additional observations from a re-analysis of the deposited data

How the results depend on the processing

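Windows of 1, 10 and 100 kb, any overlap of the peak, the nearest protein coding gene and the peaks above the median score were planned, and peaks over 600 bp wide were added after seeing the data. Of the 9 genes, 4 had a peak within 1 kb, and under the other choices 6 to 9 did. All 9 had one within 100 kb, where 69.9% of protein coding genes did. All 9 also had one by any overlap with the 50 kb window, where 57% did. The 26 peaks became 11 within 10 kb, 7 within 1 kb and 14 above the median score, as fewer peaks qualify by construction, and 18 to 39 under the others. The median score of 107 ranged from 106 to 125, apart from 161 among peaks above the median score, which is higher by construction. Over all annotated genes, 48.7% had a peak within 50 kb, against 56.8% of protein coding genes. Among peaks over 600 bp wide, 7 of the 9 genes kept a peak, and Tcf4 and Id2 did not (49.1% of protein coding genes had one). The motif search around peak centres was not run, since no genome sequence was used here. No paired analysis was possible because each antibody had 1 library.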

Other observations

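Between 50 and 100 kb from the genes lay 13 further peaks, 5 of them around Id1. On the higher-coordinate side of Id1, 3 peaks lay inside Bcl2l1, with scores of 95.6, 70.8 and 178 and with 9, 7 and 19 reads, and on the other side a peak of 367 bp with a score of 124 overlapped the lncRNA gene 1700030C14Rik. Id2 had a peak 94.5 kb upstream, over the lncRNA genes Gm36287 and Gm36496, with a score of 167 and 14 reads. Tcf4 had a second peak 99.8 kb from its lower-coordinate end, with a score of 119 and 12 reads, more than the 8 reads of the peak inside the gene, within overlapping intervals of 6.20 to 21.0 and 3.45 to 15.8.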
